A study of Mus musculus with 8 samples.

Results

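Gene deserts are long stretches of chromosome without protein-coding genes. They are as a rule rich in A and T, poor in open chromatin and late to replicate, and how replication starts inside them is known less well than at active promoters. Here the replication initiation sites (ISs) of gene deserts were taken from 2 tables of ISs of CH12 cells, a B cell lymphoma line of the mouse, mapped by sequencing short nascent strands (SNS-seq). An IS was counted as a desert IS when it overlapped no protein-coding gene and no protein-coding gene had its transcription start site (TSS) within 500 kb of the midpoint. Autosomes 10, 15 and 16 were left out. Over all their ISs the medians of the log2 fold change of Rif1KO over WT were -0.36, 0.16 and 0.33, where the 16 autosomes used lay between -0.03 and 0.05, and without an input library such whole-chromosome differences cannot be told apart from DNA content. By this rule 1877 of the 39116 ISs of the WT and Rif1KO table and 9501 of the 129937 ISs of the Rif1KO_shLacZ and Rif1KO_shMcm6 table were desert ISs. The 16 autosomes used hold 31414 and 108860 ISs in the 2 tables, so 5.97% and 8.73% of them lay in deserts. No desert IS was filtered out.

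SNS-seq enriches short, RNA-primed leading strands that resist digestion by lambda exonuclease, and the read density at an IS is taken as its relative use in the cell population. The 4 groups were CH12 cells of the wild-type genotype (WT), Rif1-knockout CH12 cells (Rif1KO), and Rif1-knockout CH12 cells that carried a hairpin RNA against the bacterial gene LacZ (Rif1KO_shLacZ, the control hairpin) or against Mcm6 (Rif1KO_shMcm6). Both hairpin groups therefore lacked RIF1, and both received lentivirus and puromycin. Which Rif1-knockout clone was sequenced is not given in the sources used here. All cells were cultured with IL4, CD40 and TGF beta stimulation per the labels. RIF1 is a chromatin protein that recruits protein phosphatase 1 and helps to set when regions replicate. MCM6 is a subunit of the ring-shaped MCM helicase, which is loaded on DNA before S phase and opens it when an origin fires. Each group had 2 libraries from separately thawed vials, but the tables give 1 pooled value per group. No replicate error could be computed and no test was made. Intervals below are 95% intervals that cover the counting of ISs or reads only, and neighbouring ISs of a pool of libraries are not independent.

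A site's value is log2 RPM, the log2 of its reads per 1000000 reads inside the ISs of the same table. The tables were scaled separately and share no library, so levels are compared within a table only. Desert ISs were read 26 to 230 times in WT, with a median of 63 reads, and 34 to 285 times in Rif1KO, with a median of 76. In the deeper hairpin table the medians were 127 reads in Rif1KO_shLacZ and 153 in Rif1KO_shMcm6, with extremes of 17 and 903 reads. Since cell populations were pooled, an IS used in more cells and an IS that yields more nascent strand per cell cannot be told apart.

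The sequences of 6 desert ISs are printed here because they carry some of the highest and lowest values in the 2 comparisons and because they differ visibly in composition. Each is the middle of the IS, on the plus strand of the mm9 (NCBIM37) genome, with runs of at least 3 G or 3 C in capitals. The first is 1 of the 3 ISs with the highest fold changes in Rif1KO_shMcm6 over Rif1KO_shLacZ, among desert ISs of at least median density, and A and G dominate it.
Desert from Cntnap5a to Tsn, chr1:119285369-119285608: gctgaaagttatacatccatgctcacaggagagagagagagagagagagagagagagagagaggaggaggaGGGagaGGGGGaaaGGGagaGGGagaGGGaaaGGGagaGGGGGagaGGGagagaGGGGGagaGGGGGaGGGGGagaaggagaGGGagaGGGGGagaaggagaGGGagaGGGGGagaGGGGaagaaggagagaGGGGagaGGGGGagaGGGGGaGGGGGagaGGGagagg
The next 2 were among the 3 with the lowest fold changes in the same comparison and the same set of ISs, and no such bias is visible in either.
Desert from D3Ertd751e to Pcdh10, chr3:42219542-42219781: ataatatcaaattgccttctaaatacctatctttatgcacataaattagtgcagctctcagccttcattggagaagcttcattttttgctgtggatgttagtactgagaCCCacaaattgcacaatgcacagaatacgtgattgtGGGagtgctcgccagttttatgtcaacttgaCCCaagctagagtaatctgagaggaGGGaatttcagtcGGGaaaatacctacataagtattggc
Desert from Med13l to Tbx3, chr5:119547137-119547376: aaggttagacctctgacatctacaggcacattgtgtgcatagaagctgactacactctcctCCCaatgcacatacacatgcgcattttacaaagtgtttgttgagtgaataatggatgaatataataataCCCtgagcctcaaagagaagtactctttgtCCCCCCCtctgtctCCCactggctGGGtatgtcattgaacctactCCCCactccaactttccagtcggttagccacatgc
The last 3 come from the WT and Rif1KO table. They are the ISs with the highest and the lowest fold change in Rif1KO over WT among desert ISs of at least median density, and 1 of the 3 ISs with the highest WT density.
Desert from Gm10110 to Pcdh9, chr14:93189882-93190121: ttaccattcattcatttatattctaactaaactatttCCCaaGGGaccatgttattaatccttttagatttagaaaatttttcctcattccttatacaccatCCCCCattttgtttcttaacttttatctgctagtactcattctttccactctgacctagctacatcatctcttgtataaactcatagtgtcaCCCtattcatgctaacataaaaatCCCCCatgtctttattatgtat
Desert from Gm8730 to Cdh5, chr8:106107556-106107795: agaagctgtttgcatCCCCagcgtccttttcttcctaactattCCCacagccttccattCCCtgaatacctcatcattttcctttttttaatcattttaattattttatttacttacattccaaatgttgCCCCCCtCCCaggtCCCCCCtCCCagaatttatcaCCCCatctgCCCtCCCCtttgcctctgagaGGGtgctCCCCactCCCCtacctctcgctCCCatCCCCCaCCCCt
Desert from Pcdh17 to Diap3, chr14:86152136-86152375: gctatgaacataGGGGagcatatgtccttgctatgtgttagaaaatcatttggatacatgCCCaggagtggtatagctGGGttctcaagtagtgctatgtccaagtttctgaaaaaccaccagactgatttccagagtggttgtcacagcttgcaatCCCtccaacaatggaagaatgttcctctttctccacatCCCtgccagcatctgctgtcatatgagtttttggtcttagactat

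The deserts themselves formed 267 intervals with known sequence, 183.2 Mb in all or 8.84% of the 2071 Mb of known sequence on the 16 autosomes. Their median length was 393.1 kb and the longest held 3.78 Mb. Initiation sites were fewer per Mb in deserts in the lists of WT and Rif1KO cells. The WT list held 893 desert ISs, or 4.87 per Mb, against 10.7 per Mb in the rest of the 16 autosomes, a ratio of 0.457 (0.428 to 0.488). The Rif1KO list held 1707 desert ISs, or 9.32 per Mb against 13.5, a ratio of 0.692 (0.659 to 0.725). The Rif1KO_shLacZ list held 6774, or 37.0 per Mb against 41.2, a ratio of 0.898 (0.877 to 0.920). The Rif1KO_shMcm6 list held 8645, or 47.2 per Mb against 46.8, a ratio of 1.008 (0.987 to 1.029). Within each comparison the ratio was higher in the second condition, with intervals that did not overlap, and the interval for Rif1KO_shMcm6 included 1.

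**Figure D1:**
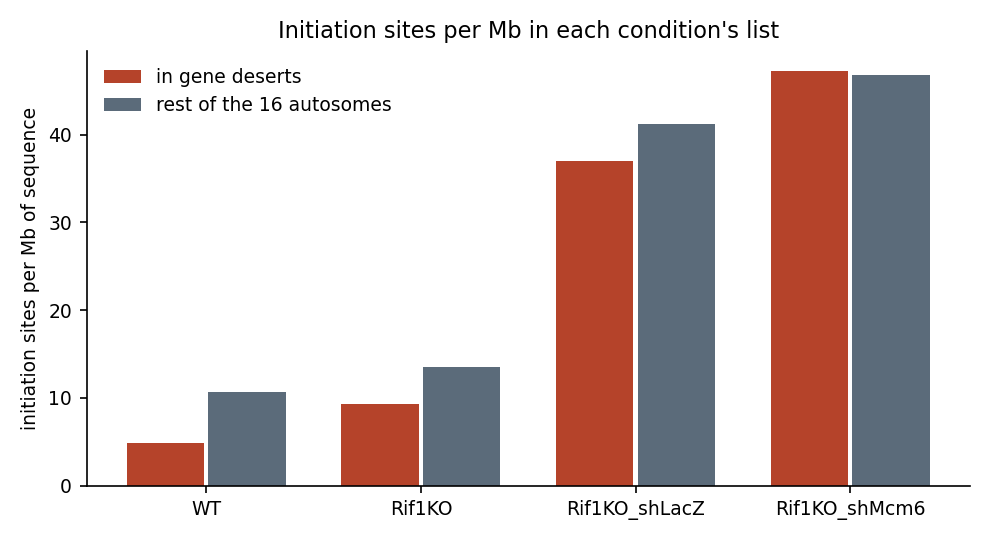
Initiation sites per Mb of known sequence in the list of each condition, in gene deserts (red) and in the rest of the 16 autosomes (grey). The desert bar is below the other bar in WT (4.87 against 10.7), Rif1KO and Rif1KO_shLacZ, and level with it in Rif1KO_shMcm6 (47.2 against 46.8).

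The ratio moved with the number of sites as well as with the condition. When the hairpin table was cut to its 31414 densest ISs in Rif1KO_shLacZ, the number in the other table, the desert ratio was 0.641 (0.611 to 0.670), close to the 0.655 of the whole WT and Rif1KO table. The same cut by Rif1KO_shMcm6 density gave 0.805 (0.772 to 0.838). The hairpin libraries held 21071351 and 23602750 reads in ISs against 3350255 and 3724571 in the other table. Rif1KO and Rif1KO_shLacZ both lacked RIF1, and between them depth cannot be told apart from the hairpin, lentivirus and puromycin. Between WT and the hairpin groups the genotype differs as well. The lists also keep only clustered peaks, with a cluster distance set for each list, and the part of this filter in the counts was not tested. After it, no desert IS lay more than 50 kb from another IS of its table, and the median distance to the nearest IS was 12.0 kb for desert ISs and 11.2 kb for other ISs in the WT and Rif1KO table, and 4.70 and 4.45 kb in the hairpin table.

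A desert IS was also more often called in the second condition alone. In Rif1KO against WT, 986 of 1877 desert ISs overlapped a site of the Rif1KO list and none of the WT list, which is 52.5% (50.3% to 54.8%) against 33.3% of all ISs of the 16 autosomes. By contrast 170 desert ISs, 9.06% (7.84% to 10.4%), were in the WT list only, against 13.6% of all ISs. In the hairpin comparison, 2783 desert ISs, 29.3% (28.4% to 30.2%), were in the Rif1KO_shMcm6 list only, against 22.9% of all ISs. There 868 desert ISs, 9.14% (8.57% to 9.73%), were in the Rif1KO_shLacZ list only, against 11% of all ISs. Absence from a list is not absence of reads.

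Desert ISs were used less than other ISs in every condition, and the gap was smaller in Rif1KO and in Rif1KO_shMcm6 than in their controls. The median density of desert ISs was 4.23 log2 RPM in WT (quartiles 3.96 and 4.58) and 4.35 in Rif1KO (4.03 and 4.69). Other ISs had medians of 4.46 in both. Desert ISs were therefore lower by 0.23 in WT (interval of the difference -0.26 to -0.21) and lower by 0.11 in Rif1KO (-0.15 to -0.09) on the log2 scale. In the hairpin table the medians were 2.59 in Rif1KO_shLacZ (2.14 and 3.05) and 2.70 in Rif1KO_shMcm6 (2.26 and 3.12), against 2.76 and 2.77 at other ISs. The quartile ranges overlap widely, so single ISs of the 2 kinds cannot be told apart by density. On each of the 16 autosomes the desert median was the lower one in WT, in Rif1KO and in Rif1KO_shLacZ, and in Rif1KO_shMcm6 it was lower on 14. More desert than other ISs entered the tables through the second condition alone, 52.5% against 32.0% and 29.3% against 22.3%. Fewer entered through the control alone, 9.06% against 13.9% and 9.14% against 11.2%. Such entry can by itself lower the control median of desert ISs, and its part in the smaller gap was not tested.

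**Figure D2:**
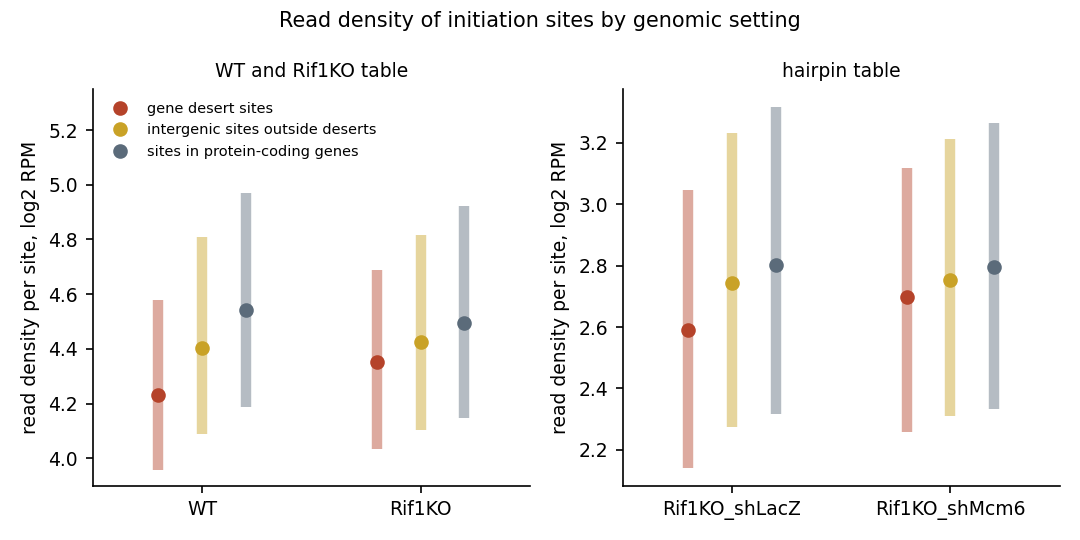
Read density per IS (log2 RPM) in the 4 conditions for desert ISs (red), intergenic ISs nearer to a TSS (yellow) and ISs in protein-coding genes (grey). Points are medians and bars run from the first to the third quartile of ISs. The desert point is the lowest in all 4 conditions, and it lies nearer to the others in Rif1KO (4.35) than in WT (4.23), and in Rif1KO_shMcm6 (2.70) than in Rif1KO_shLacZ (2.59).

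Part of this gap moved with base composition and width. Desert ISs had a median GC content of 40.6% and 39.1% in the 2 tables, against 47.7% and 45.2% at other ISs, and medians of 415 and 578 bp in width against 447 and 601 bp. Within classes of like GC content the desert ISs were lower by 0.07 in WT, 0.02 in Rif1KO and 0.07 in Rif1KO_shLacZ, and higher by 0.005 in Rif1KO_shMcm6. Per kb of IS the differences were -0.14 and -0.02 in WT and Rif1KO, and -0.12 and -0.02 in Rif1KO_shLacZ and Rif1KO_shMcm6.

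In the knockout comparison desert ISs had higher densities in Rif1KO than in WT more often than other ISs did. Their median log2 fold change was 0.12 (0.11 to 0.14), and 71.3% of them were above 0, where 50.1% of other ISs were. The other ISs had a median of 0.001, intergenic ISs outside deserts 0.02, and ISs in protein-coding genes -0.03. The middle 50% of desert ISs lay between -0.03 and 0.26. The shift is thus smaller than the spread among ISs, which had an SD of 0.23. Of the 1877 desert ISs 36 were at least 1.5-fold higher in Rif1KO, 1.92% (1.39% to 2.64%), where 0.945% of all ISs were. Of these, 34 were called in the Rif1KO list only, and so came into the table through the condition in which they are high. Among the 721 desert ISs called in both conditions 2 were past the threshold, 0.277%, against 0.0313% of other ISs called in both, while the medians there were 0.08 and -0.03. At least 1.5-fold lower were 2, 0.107% (0.0292% to 0.388%), where 1.35% of all ISs were, and both were in the WT list only. Division of the reads by counting alone, with no change at any IS, would put 1.12% of desert ISs above and 1.04% below the threshold at this depth.

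Depletion of MCM6 in cells without RIF1 gave a shift of like size in a comparison that shares no library with the first. The median log2 fold change of desert ISs was 0.09 (0.08 to 0.09) and 63.8% were above 0, where 47.0% of other ISs were, against a median of -0.02 at other ISs, -0.01 at intergenic ISs outside deserts and -0.04 at ISs in protein-coding genes. The middle 50% of desert ISs ran from -0.08 to 0.27. Here 622 of 9501 desert ISs were at least 1.5-fold higher in Rif1KO_shMcm6, 6.55% (6.07% to 7.06%), where 4.82% of all ISs were. Of the 622, 523 were called in the Rif1KO_shMcm6 list only and entered the table through it. Among the 5850 desert ISs called in both lists 95 were past the threshold, 1.62% against 1.30% of other ISs called in both, and the medians were 0.05 and -0.05. At least 1.5-fold lower were 43, 0.453% (0.336% to 0.609%), where 1.5% of all ISs were, and 36 of the 43 were in the Rif1KO_shLacZ list only. Counting by itself would put 0.170% above and 0.149% below. With pooled reads, deserts held 4.84% of the WT and 5.29% of the Rif1KO reads in ISs of the 16 autosomes, and 7.59% of the Rif1KO_shLacZ and 8.14% of the Rif1KO_shMcm6 reads.

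The difference between desert and other ISs was found on every autosome used. In Rif1KO against WT the desert median exceeded that of the other ISs of the same autosome on 16 of 16 autosomes, by 0.02 on autosome 13 to 0.19 on autosome 4. In Rif1KO_shMcm6 against Rif1KO_shLacZ it did so on 16 of 16, by 0.06 on autosome 12 to 0.14 on autosome 7. Autosome 14 held the most desert ISs, 440 and 1243, and autosome 19 the fewest, 13 and 123. The share of ISs at least 1.5-fold lower was smaller in deserts on all 16 autosomes in both comparisons, while the share at least 1.5-fold higher was larger in deserts on 10 and on 14 of them. For the lower share in Rif1KO against WT the count of autosomes says little, since only 2 of 1877 desert ISs were that low. An autosome with few desert ISs can hold none of them without any difference from other ISs.

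**Figure D3:**
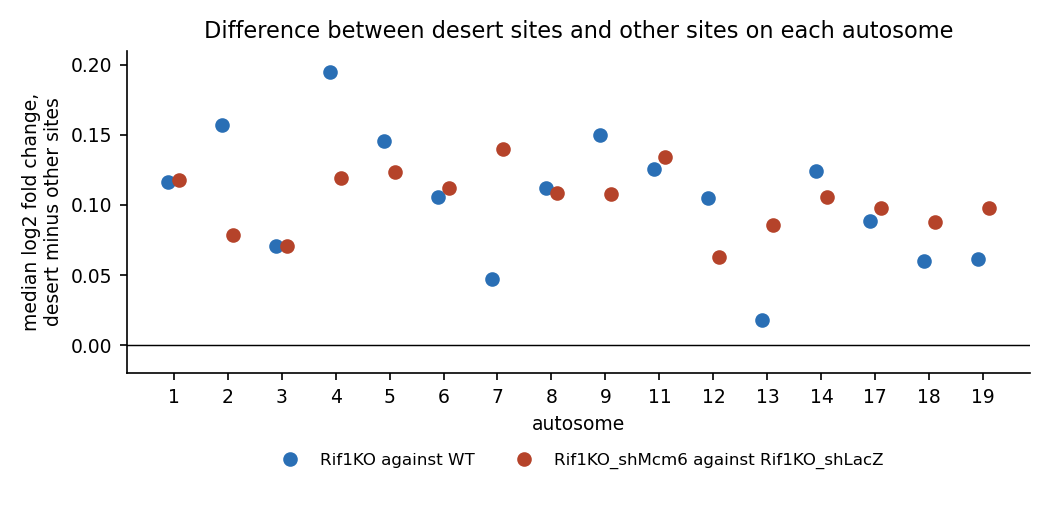
Median log2 fold change of desert ISs minus that of the other ISs on each of the 16 autosomes, for Rif1KO against WT (blue) and Rif1KO_shMcm6 against Rif1KO_shLacZ (red). All 32 points lie above 0, between 0.02 and 0.19.

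From 10 kb outward the fold change tended to be higher with the distance to a coding TSS, with no step at the limit of the rule. In Rif1KO against WT intergenic ISs within 1 kb of a TSS had a median of -0.07, those 10 to 50 kb away -0.002, and those 200 to 300 kb away 0.07. Just outside the rule, at 450 to 500 kb, 266 ISs had a median of 0.11, and just inside it, at 500 to 550 kb, 234 ISs had one of 0.10. Beyond 550 kb the medians of the distance classes stayed between 0.11 and 0.14. In the hairpin comparison the median was 0.002 within 1 kb of a TSS and lowest at 10 to 50 kb, at -0.04. The 1360 ISs just outside the rule had 0.08 and the 1123 just inside it 0.05, and the highest class median was 0.10, at 1000 to 1500 kb. Median GC content was lower far from a TSS. It was 52.9% within 1 kb and 39.9% at 1000 to 1500 kb in the WT and Rif1KO table, and 50.9% and 38.2% in the hairpin table. Whether the trend with distance holds at like GC content was not tested.

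**Figure D4:**
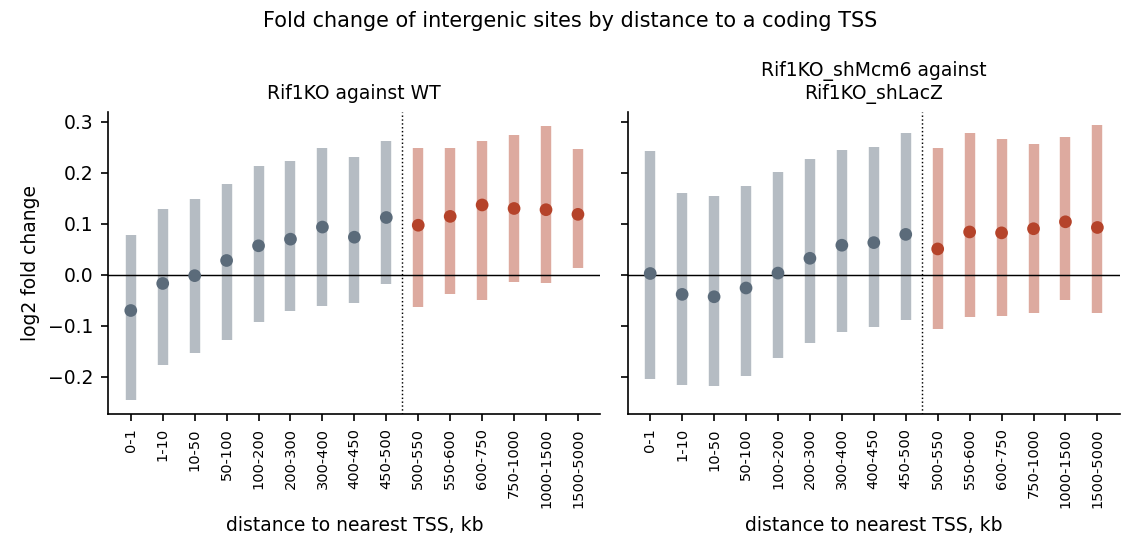
Log2 fold change of intergenic ISs by distance to the nearest TSS of a protein-coding gene, in kb, for both comparisons. Points are medians, bars run from the first to the third quartile, and red marks the desert ISs beyond 500 kb (dotted line). Medians go from -0.07 up to 0.14 on the left, and on the right they start at 0.002, are lowest at -0.04 and reach 0.10, and the bars of all classes overlap.

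Part of the difference in fold change moved with GC content. In classes of like GC content the desert ISs had the higher median in 9 of 9 classes in both comparisons, and the difference averaged over classes was 0.06 in place of 0.12 for Rif1KO against WT and 0.07 in place of 0.11 for Rif1KO_shMcm6 against Rif1KO_shLacZ. In 5 classes of equal size by mean density it was 0.12 and 0.10, and positive in 5 of 5 classes in both. Against intergenic ISs outside deserts alone it was 0.10 in both. The excess of desert ISs at least 1.5-fold higher in Rif1KO went from 1.03 to 0.21 percentage points within GC classes. In Rif1KO_shMcm6 it went from 1.89 to 2.37 points. By class the direction was mixed in Rif1KO, where the share was larger in deserts in 5 of 9 GC classes, with differences from -1.39 to 1.29 points. For Rif1KO_shMcm6 it was larger in 9 of 9.

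Desert ISs with a strand rich in purines or in pyrimidines had the highest fold changes after MCM6 depletion. Purine content was counted as the larger of the shares of A plus G and of C plus T in the central 500 bp, which is lowest where both are equally common. This measure was chosen after the sequences above had been seen. Of the 217 desert ISs over 75%, 133 were at least 1.5-fold higher in Rif1KO_shMcm6 than in Rif1KO_shLacZ, 61.3% (54.7% to 67.5%), and their median log2 fold change was 0.70. At 65% to 75% it was 163 of 897, 18.2% (15.8% to 20.8%), with a median of 0.25. At 60% to 65% it was 106 of 2092, 5.07%, at 55% to 60% 122 of 3195, 3.82%, and at 55% or less 98 of 3100, 3.16%. The medians of these classes were 0.10, 0.06 and 0.07. The 1114 desert ISs over 65% were 11.7% of desert ISs and 47.6% of those past the threshold, 296 of 622. Without them the share was 3.89%, against 2.50% at other ISs without theirs. Among desert ISs called in both lists the order was kept at lower shares: 26 of 75 over 75% were past the threshold (34.7%, 24.9% to 45.9%), 32 of 472 at 65% to 75% (6.78%), and 37 of 5303 at 65% or less (0.698%). At other ISs called in both lists these shares were 24.0%, 3.37% and 0.450%.

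The same order held outside deserts, where 41.0% of 3010 ISs over 75% and 2.19% of 36142 ISs at 55% or less were at least 1.5-fold higher. In each of the 5 classes of composition the desert ISs had the higher median, by 0.10 to 0.21, and the larger share past the threshold. The desert ISs over 75% had a low median density in the control, and most of them were not in the control list. ISs that enter through the Rif1KO_shMcm6 list alone tend to be low in the control, and the part of this selection was not tested. Their median was 2.23 log2 RPM in Rif1KO_shLacZ and 2.99 in Rif1KO_shMcm6, below and above the medians of all desert ISs, and 38.2% of them overlapped the Rif1KO_shLacZ list and 96.3% the Rif1KO_shMcm6 list. In Rif1KO against WT no such order was seen: 4 of 243 desert ISs over 65% were at least 1.5-fold higher, 1.65%, against 1.96% of the rest, and of the 13 over 75% none was.

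**Figure D5:**
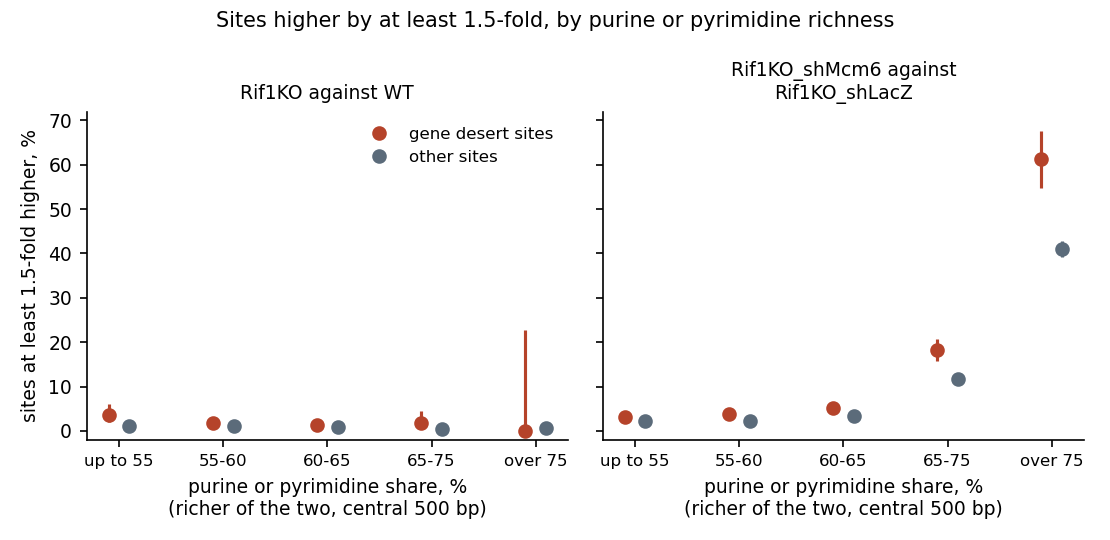
Share of ISs (in %) with a density at least 1.5-fold higher, by the richer of the purine and pyrimidine shares of the central 500 bp, for desert ISs (red) and other ISs (grey) in both comparisons; lines are 95% Wilson intervals. On the right the share goes from 3.16% to 61.3% in deserts and from 2.19% to 41.0% elsewhere, and on the left no desert class exceeds 3.52%, with 13 ISs in the last class.

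Short-range repetition gave the same picture. The share of 10-letter words that occur again in the central 500 bp was over 20% at 346 desert ISs of the hairpin table, and 144 of these, 41.6%, were at least 1.5-fold higher in Rif1KO_shMcm6, against 205 of 6890 (2.98%) at 2% or less. Outside deserts the same order was seen, with 1433 of 5829 (24.6%) over 20% and 2.01% at 2% or less. Among those called in both lists it was 24 of 146 in deserts, 16.4%, and 11.2% of such ISs elsewhere. In the knockout comparison 0 of 28 such desert ISs were. The features overlap, since 292 of the 346 were also over 65% purine or pyrimidine, and 137 of these 292, 46.9%, were past the threshold. Of the 54 repetitive desert ISs with a share of 65% or less, 7 were past it (13.0%), and of the 822 desert ISs over 65% that were not repetitive, 159 were (19.3%). Which of the features the change follows was not tested.

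The motif of 4 runs of at least 3 G with gaps of 1 to 7 bases, which can fold into a G-quadruplex and has been linked to origins, was nearly as common in desert ISs as in other ISs. It was searched on both strands of the central 500 bp. Of the 1877 desert ISs of the WT and Rif1KO table, 1347 held it, 71.8% (69.7% to 73.7%), against 75.3% of other ISs. Of the 9501 of the hairpin table, 4503 held it, 47.4% (46.4% to 48.4%), against 50.5%. Windows of 500 bp across deserts held it in 7.08% of cases, and windows elsewhere in 8.42%. Desert ISs were therefore far richer in the motif than desert sequence in general although they are AT-rich, at 40.8% and 38.6% GC in the central 500 bp against 37.4% in desert windows. A match is a description of letters, not evidence of a folded structure. Desert ISs with the motif had a median log2 fold change of 0.11 in Rif1KO over WT, and those without it 0.16. In Rif1KO_shMcm6 over Rif1KO_shLacZ the medians were 0.08 and 0.09. The shares at least 1.5-fold higher were 1.49% with the motif and 3.02% without it in Rif1KO, with overlapping intervals, and 8.15% (7.39% to 8.99%) and 5.10% (4.53% to 5.75%) in Rif1KO_shMcm6. At other ISs the same shares were 0.733% and 1.34%, and 5.52% and 3.78%.

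The single sites show these values. The purine-rich IS between Cntnap5a, a gene of the contactin-associated proteins, and Tsn (chr1:119285082-119285894) had 102 reads in Rif1KO_shLacZ and 294 in Rif1KO_shMcm6. Its log2 fold change was 1.36 (counting SE 0.17). In its central 500 bp 85.2% of bases are of 1 kind, and 42.8% of its 10-letter words occur again. It overlapped the Rif1KO_shMcm6 list and none of the other lists.

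Among desert ISs of at least median density, the 3 lowest fold changes of the hairpin comparison were smaller in size and lay in ISs of balanced composition. Over all desert ISs the fold changes ran from -0.97 to 2.45. An IS between D3Ertd751e and the protocadherin gene Pcdh10 (chr3:42824725-42825302) had 169 reads in Rif1KO_shLacZ and 121 in Rif1KO_shMcm6, a log2 fold change of -0.65 (counting SE 0.17). A second IS of the same desert (chr3:42219396-42219926) had 217 and 157 reads, -0.63 (0.15). The IS between Med13l and Tbx3 (chr5:119546932-119547581) had 232 and 168 reads, -0.63 (0.15). Their richer share of purines or pyrimidines was 51.6%, 54% and 55.8%.

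In the knockout comparison the fold changes of all desert ISs ran from -0.67 to 1.10. Among those of at least median density the highest was at an AT-rich IS between Gm10110 and Pcdh9 (chr14:93189716-93190286, 31.9% GC), with 52 reads in WT and 108 in Rif1KO. Its density was 3.96 and 4.86 log2 RPM, a log2 fold change of 0.90 (0.24). Next came ISs between Celf2 and Gata3 (58 and 114 reads, 0.82) and between Tle4 and Psat1 (61 and 112 reads, 0.72). All 3 were in the Rif1KO list and not in the WT list. The lowest of this set were nearest to Cdh5 (chr8:106107466-106107885, 89 and 71 reads, -0.48) and Ndufa4 (80 and 64 reads, -0.47), and a second site of the Pcdh9 desert (80 and 66 reads, -0.43). Their counting SE was 0.23 to 0.24, so these low values are near 2 SE from 0 and were picked as extremes among many. The Pcdh9 desert thus held both the highest and 1 of the 3 lowest values of this set.

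Among the most used desert ISs, the 5 given here had log2 fold changes between -0.26 and 0.32. In the knockout comparison, an IS between Med13l and Tbx3 (chr5:119554712-119555523), not the one named above, had 216 reads in WT and 243 in Rif1KO. Its log2 fold change was 0.02 (0.13). The IS between Pcdh17 and Diap3 had 206 and 285 reads, 0.32 (0.13). In the hairpin table the densest was a GC-rich repeat between Dok5 and Cbln4 (chr2:171330482-171332057, 60.5% GC) with 862 and 847 reads, -0.19 (0.07). It is also rich in bases of 1 kind (76%) and repetitive (83.5% of its 10-letter words), so its fold change was opposite in sign to the median of ISs with these features. It was followed by ISs nearest to Zfp608 on chromosome 18 (613 and 642 reads, -0.10) and between D3Ertd751e and Pcdh10 (chr3:42505251-42506818, 601 and 563 reads, -0.26).

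The ISs were spread over most deserts. Of the 267 deserts 189 held an IS in the WT and Rif1KO table and 250 in the hairpin table. Desert ISs were most numerous between Olfm4 and Pcdh17 on chromosome 14 (chr14:80900110-84343369), with 85 and 271 ISs. Between Gm10110 and Pcdh9 on the same chromosome there were 81 and 229, and between Gm17624 and Vstm2a on chromosome 11 there were 56 and 183. Next were Odz2 to Mat2b (44) and Pcdh17 to Diap3 (39) in the WT and Rif1KO table, and Pcdh7 to G6pd2 (168) and Kcnt2 to Cdc73 (167) in the hairpin table. Protocadherins are cell adhesion molecules of the nervous system.

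Among deserts with at least 10 ISs the median fold change was above 0 in 58 of 61 in Rif1KO against WT and in 161 of 190 in Rif1KO_shMcm6 against Rif1KO_shLacZ. The median over deserts was 0.12 (range -0.05 to 0.30) and 0.09 (range -0.17 to 0.31). In the knockout comparison the highest were Rgs18 to Gm5263 (0.30, 11 ISs), Celf2 to Gata3 (0.30, 14 ISs) and Tbl1xr1 to Gm7536 (0.28, 13 ISs), and the lowest were Rpl17-ps3 to Rps29 (-0.05, 12 ISs), Lmo7 to Irg1 (-0.01, 13 ISs) and Abca13 to Vwc2 (-0.01, 19 ISs). In the hairpin comparison the highest were 3110039M20Rik to Prkd1 (0.31, 17 ISs), Ptbp2 to Rwdd3 (0.29, 18 ISs) and Gm7536 to Nlgn1 (0.27, 31 ISs). None of these 3 held an IS in the WT and Rif1KO table. The lowest were Gm2058 to Vstm2b (-0.17, 23 ISs), Sall3 to Galr1 (-0.17, 18 ISs) and Plxdc2 to Nebl (-0.13, 25 ISs). Across the 61 deserts with at least 10 ISs in both tables the 2 medians had a Spearman's rho of -0.15, which is a description over deserts.

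The genes that flank deserts were counted by gene family, with no comparison with the families' share of all genes. Cadherins and protocadherins flanked 16 of the 250 deserts with ISs, with 384 ISs of median fold change 0.15 in the knockout comparison and 1587 of 0.10 in the hairpin comparison. Contactins, contactin-associated proteins, neurexins and neuroligins, which are adhesion molecules of axons and synapses, flanked 12 deserts (40 ISs of 0.14 and 518 of 0.12). Developmental transcription factors flanked 9 (20 ISs of 0.05 and 165 of 0.09), leucine-rich synaptic genes 8 (92 of 0.15 and 395 of 0.10), potassium channels 6 (76 of 0.18 and 364 of 0.11), and glutamate receptors 5 (25 of 0.13 and 155 of 0.06). Teneurin and ADAMTS genes flanked 2 (44 of 0.07 and 77 of 0.15), and Slit2, an axon guidance gene, 1 (13 of 0.17 and 57 of 0.12). No desert was flanked by an olfactory or vomeronasal receptor gene. These medians lie around those of all desert ISs, 0.12 and 0.09.

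Of a list of B cell regulators, Bcl11a, Ebf1, Ets1 and Id2 flank 1 desert each. Their 129 ISs in the hairpin table had a median log2 fold change of -0.004, beside 0.09 over all desert ISs. By desert the medians were -0.01 at Bcl11a (62 ISs), -0.09 at Ebf1 (14 ISs), 0.02 at Ets1 (36 ISs) and 0.03 at Id2 (17 ISs). In Rif1KO against WT the 31 ISs of these deserts had a median of 0.16, beside 0.12. With 4 deserts, among many with medians as low, this is a description and no test was made.

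Few desert ISs touched genes of other types. Of those in the WT and Rif1KO table, 37 overlapped an annotated gene that is not protein-coding by biotype (1.97%), 28 of them a processed transcript and 6 a lincRNA, and their median fold change was 0.08 beside 0.12 for the other desert ISs. Of those in the hairpin table, 168 did (1.77%), 1 of them an immunoglobulin V gene, and the medians were 0.07 and 0.09.

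Desert ISs of the 2 tables were largely nested. Of the 1877 in the WT and Rif1KO table, 1598, or 85.1% (83.5% to 86.7%), overlapped an IS of the hairpin table, and 1575 of the 9501 in the hairpin table, 16.6% (15.8% to 17.3%), overlapped one of the smaller table. At ISs outside deserts these shares were 84.0% and 24.6%. At 1553 desert ISs with a single partner the fold changes of the 2 comparisons had a Spearman's rho of 0.02 and a Pearson's r of 0.004 across ISs. Their medians were 0.12 in Rif1KO over WT and 0.04 in Rif1KO_shMcm6 over Rif1KO_shLacZ. At the 23961 other ISs with a single partner rho was 0.11 and the medians were 0.002 and -0.10. Desert ISs of the first table have median counts of 63 and 76 reads, and the part of counting error in the low correlation was not tested.

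Desert ISs seen in the hairpin table alone were the weaker ones and had the higher fold change. They had a median density of 2.46 log2 RPM in Rif1KO_shLacZ, against 3.22 for the 1553 paired ones, and a median log2 fold change of 0.10, against 0.04. ISs outside deserts had the same order, with 0.01 in the hairpin table alone and -0.10 at paired ISs. Of the 7926 desert ISs seen in the hairpin table alone, 2666 (33.6%) were called in the Rif1KO_shMcm6 list only, and among the 4492 called in both hairpin lists the median was 0.05. At the other end, 549 desert ISs, 5.78% (5.33% to 6.27%), overlapped all 4 lists, against 12.1% of other ISs. Their median was 3.43 log2 RPM in Rif1KO_shLacZ and their fold change in Rif1KO_shMcm6 was 0.02, against -0.11 at the 12014 other ISs found in all 4 lists.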

How the data were processed

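SNS-seq libraries of the 4 groups were prepared from DNA of CH12 cells by size selection and exonuclease digestion. The authors trimmed reads with Trim Galore 0.6.4 (cutadapt 2.6), aligned them to mm9 with Bowtie 1.2.3 keeping unique alignments, called peaks per replicate with MACS without input, intersected replicates with bedtools, kept peaks inside ClusterScan clusters and merged the peak sets of each pair of conditions. Tool versions are from the submitters' processing notes. The deposited tables give log2 RPM values, made by the authors from reads inside the ISs of the table, with the replicates of a condition pooled. Every value was a whole multiple of 1 read within a tolerance of 0.01 reads, which gave the reads per IS. The deposited lists give, in a column that is not a measurement of density, the number of replicate peaks merged; another column, the authors' category of fold change, was not used.

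Fold changes are differences of the deposited log2 values, with 1.5-fold as threshold. Desert ISs were found with GENCODE M1 (21418 protein-coding genes on the 19 autosomes) on NCBIM37, which is mm9. A desert is a run of positions that meet the rule, named by the nearest protein-coding gene on each side. Shares have 95% Wilson intervals, medians order-statistic intervals and counts Poisson intervals, which take the values of the other ISs as fixed; PCR copies are not independent molecules, so they cover counting error only. The counting share past the threshold is the binomial probability of dividing each IS's reads at the ratio of the library totals. Motif, purine and repetition measures used the central 500 bp; the background windows were every 10th window of 500 bp. Named ISs were, per table, the 3 highest and 3 lowest fold changes among desert ISs of at least median density and the 3 highest control densities, of which 3 ISs are not reported here; named deserts were the 5 with most ISs and the 3 highest and 3 lowest medians among those with at least 10 ISs. The members, gene families and measures were chosen with earlier results of these data known, and purine content and repetition after the sequences had been seen. Code was tested on simulated data. Python 3 with NumPy, pandas, SciPy and Matplotlib was used.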

Additional observations from a re-analysis of the deposited data

How the results depend on the processing

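No paired analysis was possible because the files hold 1 pooled value per condition; fits with a replicate block, edgeR and leaving out replicates were not run for this reason. The threshold set the counts: past 2-fold, 0.0533% of desert ISs were higher and 0% lower in Rif1KO (other ISs 0.0339% and 0.0982%), and 1.31% and 0% in Rif1KO_shMcm6 (0.938% and 0.0564%), while past 0.32 (log2) it was 18.3% and 2.56% (8.93% and 9.31%), and 20% and 4.86% (13.9% and 12.2%). In 24 of 24 settings the share higher was above that of other ISs, and in 24 of 24 the share lower was below it. Without ISs under the lower quartile of density, the shares higher and lower were 0.735% and 0% in Rif1KO (0.279% and 0.989%), and 3.91% and 0.149% in Rif1KO_shMcm6 (2.94% and 0.989%). At ISs called in both conditions they were 0.277% and 0% (0.0313% and 0.357%), and 1.62% and 0.120% (1.30% and 0.834%). With log2(RPM + 1) they were 3.86% and 0.0526% in Rif1KO_shMcm6 (2.86% and 0.607%). At 1000 kb none was lower in Rif1KO (other ISs 1.37%), and 7.09% were higher and 0.257% lower in Rif1KO_shMcm6 (4.76% and 1.53%). With genes of every biotype 3.53% were higher and 0% lower in Rif1KO (0.917% and 1.36%). With all 19 autosomes the shares in Rif1KO were 5.09% and 0.700% (2.07% and 2.83%). Without ISs over 65% purine or pyrimidine, an alternative chosen after seeing the data, 3.89% were higher in Rif1KO_shMcm6 (2.50%).

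Desert minus other ISs, the share lower in Rif1KO was -0.45 percentage points within GC classes, -1.58 within density classes and -0.82 against intergenic ISs, and in Rif1KO_shMcm6 -0.30, -1.33 and -0.93. The share higher was 0.21 points within GC classes in Rif1KO and 1.36 within density classes in Rif1KO_shMcm6. The difference in median fold change stayed above 0 under all alternatives run. For Rif1KO it was 0.107 at ISs called in both conditions, 0.138 with all 19 autosomes, 0.0573 within GC classes and 0.0988 against intergenic ISs. For Rif1KO_shMcm6 it was 0.0941 with log2(RPM + 1), 0.115 at 1000 kb, 0.0888 with every biotype, 0.0678 within GC classes, 0.101 within density classes and 0.0966 against intergenic ISs. Giving each desert the same weight, an alternative added later, gave 0.117 and 0.109.

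The lower density of desert ISs was -0.139 per kb, -0.173 against intergenic ISs and -0.0747 within GC classes in WT, and -0.0198, -0.0740 and -0.0203 in Rif1KO. It was -0.120 per kb and -0.0729 within GC classes in Rif1KO_shLacZ, and in Rif1KO_shMcm6 -0.0242 per kb and reversed, at 0.00543, within GC classes. The ratio of ISs per Mb was 0.511 with unsequenced bases counted in the WT and Rif1KO table. In the hairpin table it was 0.769 with them, 0.963 at 1000 kb, and 0.641 and 0.805 among the densest 31414 ISs in Rif1KO_shLacZ and Rif1KO_shMcm6, a check added later. Of 114 alternative values 55 stayed inside the interval of the reported value, 58 moved outside it and 1 reversed. The causes were not tested.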
